A study of Mus musculus with 3 samples.

Results

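Heat exposure was compared with pair feeding in the hypothalamus by setting 1 single-cell RNA library from heat-exposed mice (HS) against 1 library from pair-fed mice (PF), cell class by cell class and over all measured genes. Pair feeding matches food intake to that of the exposed animals, so food intake was matched between the groups. The remaining library, from mice after recovery (QS), is not compared here. Cells were barcodes with at least 500 UMIs (unique molecular identifiers, 1 per captured transcript) and at most 20% of UMIs from mitochondrial genes. Each was placed in the class of which it expressed the largest share of standard markers, and 8 classes held at least 150 cells in both libraries. They comprised 9250 of the 12645 kept PF cells and 8916 of the 12305 kept HS cells, or 18166 of the 36467 kept cells of the whole 3-library series.

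All mice were males of 8 weeks whose hypothalami were digested with collagenase II, dissociated by mechanical means and captured with the 10x 3′ v3 chemistry. Strain, genotype, the number of mice behind each library, the temperature and length of the exposure and the time of day at collection are not stated by the labels or notes read for this comparison. With 1 library per group the spread between animals is unknown, no test was made, and "higher" and "lower" describe these libraries rather than the conditions. Values are CPM, the UMIs of a gene per 1000000 UMIs of its class in that library, and HS/PF ratios of CPM carry exact 95% intervals in parentheses that cover counting error only. All classes come from the same pair of libraries, so a difference seen in several classes is not repeated evidence.

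Depth was close in the libraries, with 100727912 UMIs in PF and 103891747 in HS before filtering, medians of 6366 (PF) and 6510 (HS) UMIs and 3.01% and 2.91% mitochondrial UMIs per kept cell, and 37 cell barcodes occurred in both. Endothelial-like cells, the lining of blood vessels, numbered 3929 in PF and 3699 in HS. Microglia-like cells (1607 and 1274), astrocyte-like cells (1057 and 1430), ependymal-like cells (865 and 905), which line the ventricles, and oligodendrocyte-like cells (841 and 771), which make myelin, formed the other large classes. Pericyte-like (409 and 368), vascular smooth muscle-like (293 and 231) and fibroblast-like cells (249 and 238) were the small ones, and their single-gene ratios rest on few UMIs. In each class its own gate markers had the highest summed level of any marker set, which the gate itself favours, and none was at 0. The HS/PF ratio of this summed level lay between 0.90 and 1.01. Among the 10 genes that most exceeded the other classes, gate markers of the class numbered from 1 in microglia-like to 7 in pericyte-like cells. Markers of other cells differed too: pituitary markers stood higher in HS in 7 of 8 classes (17.6 to 138 CPM in PF, 54.7 to 140 in HS), with growth hormone (Gh) at 0 UMIs in the PF and 813 CPM in the HS library as a whole. Neutrophil and tanycyte markers stood higher in HS in 8 of 8 classes, while oligodendrocyte and microglia markers stood lower in 7 of 7 other classes and erythroid genes in 8 of 8. The part of these differences in the gene results was not tested.

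Several regulators form the background to this comparison. Glucocorticoids, the adrenal stress hormones, bind a receptor that recognises a palindromic DNA element and raises transcription of genes such as Tsc22d3, Fkbp5, Sgk1 and Zbtb16. Heat shock factors bind repeated GAA units in alternating orientation and raise genes for chaperones, the proteins that keep others folded. RNA of the cold-inducible binding protein Cirbp falls as temperature rises, and interferons act through a further element to raise antiviral and antigen-presenting genes.

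The sequences upstream of genes at the ends of the rankings were searched for these elements, since the deposited counts alone do not show them. Of 146 such genes, 115 had a RefSeq promoter (GRCm38.p6), and the 250 bases before each start were read on both strands. Of the 13 shared genes described further on, 6 had an entry, and no motif was in those windows. The first sequence, shown because Sgk1 had the farthest ratio among the genes specific to 1 class, is from 1 of its 6 starts and holds the full receptor element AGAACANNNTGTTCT, which is in 3 of 32851 mouse promoters (0.00913%). It lies at chr10:21993676-21993740 on the plus strand, 189 bases before that start, and the capitals mark the element.
Sgk1: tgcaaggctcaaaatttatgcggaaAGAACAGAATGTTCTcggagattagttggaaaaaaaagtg
The second, from the cyclin gene Ccnd3 at chr17:47593257-47593319 on the plus strand, is the 1 searched gene with 3 alternating heat shock units (GAANNTTCNNGAA or TTCNNGAANNTTC, in 0.466% of promoters), in capitals.
Ccnd3: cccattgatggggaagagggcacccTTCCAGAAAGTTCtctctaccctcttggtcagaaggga
The chaperone genes Hsph1 (chr5:149636337-149636394, minus strand) and Hspa1b (chr17:34959310-34959367, minus strand) are shown as genes at the high end in more than 1 class that held a motif. Of the other genes at the high end in more than 1 class, Ahsa2, Csrnp3, Dennd5b and Tsc22d3 had a promoter entry and no motif. The capitals in both sequences mark 2 units (GAANNTTC or TTCNNGAA, in 12.8% of promoters, contained in the longer motif).
Hsph1: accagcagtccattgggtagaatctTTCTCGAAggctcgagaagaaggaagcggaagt
Hspa1b: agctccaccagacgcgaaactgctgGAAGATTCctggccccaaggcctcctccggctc
Genes at the low end are shown by Igtp (chr11:58199497-58199555, plus strand), an interferon-induced GTPase, and H2-T22 (chr17:36042899-36042958, minus strand), a class I-like histocompatibility gene. Their capitals mark the interferon-stimulated element GAAANNGAAA or TTTCNNTTTC, in 2.98% of promoters.
Igtp: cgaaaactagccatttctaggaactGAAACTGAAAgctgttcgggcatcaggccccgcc
H2-T22: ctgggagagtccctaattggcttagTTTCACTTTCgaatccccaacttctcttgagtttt

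Among the searched genes the shares with a motif are given beside those of all genes with a promoter, and a match is a description of letters, not a site in use. The 2-unit heat shock motif was upstream of 19 of the 115 genes (16.5%) and of 14.5% of all 27025 genes. Of the 19, 13 were among the 60 genes higher in HS and 6 among the 55 lower. The short receptor core ACANNNTGT, which the full element contains, was upstream of 7 (6.09%), 4 of them higher in HS and 3 lower, and of 6.76% of all genes. The interferon-stimulated motif was upstream of 6 (5.22%), 4 of them among the 55 genes lower in HS and 2 among the 60 higher, and of 3.46% of all genes. Sgk1, printed for its receptor element, was also among the genes with the interferon-stimulated and the 2-unit heat shock motifs.

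Few genes differed in most classes. A gene counted as measured in a class with at least 30 UMIs over both libraries, at least 30 CPM in 1 of them and at least 20% of the level of the class where it was highest, and 40806 pairs of a gene and a class were measured. Of these pairs, 1520 (3.72%) stood above the PF level by at least 25% in HS and 1494 (3.66%) below it by at least 20%, which is the same fold downward, with intervals that left out 1. Among 4198 genes measured in at least 5 classes, 7 (0.167%) were shared higher and 6 (0.143%) shared lower, which required this difference the same way in at least 4 classes and 2 of every 3, and the opposite in none. Of the 1961 genes measured in all 8 classes, 1643 (83.8%) were higher in no class and 1669 (85.1%) lower in none. A single gene, Cirbp, passed this limit the same way in 7 of them.

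Zbtb16, a zinc-finger transcription factor induced by glucocorticoids (mm10 chr9:48654297-48836222), headed the ranking by ratio in 5 classes. In endothelial-like cells it stood at 37.6 CPM in PF and 201 CPM in HS, a ratio of 5.33 (5.0 to 5.69). In oligodendrocyte-like cells it stood at 39.3 and 156 CPM (3.98, 3.46 to 4.59), in astrocyte-like cells at 57.3 and 182 CPM (3.18, 2.76 to 3.69), in fibroblast-like cells at 77.0 and 200 CPM (2.59) and at 40.1 and 89.9 CPM (2.24) in vascular smooth muscle-like cells. After each cell was thinned to 2000 UMIs, with shallower cells left out, the share of endothelial-like cells with a Zbtb16 UMI was 6.74% of 3295 PF cells and 29.0% of 3199 HS cells (18.6% and 56.2% unthinned). In microglia-like cells the gene was below the measured level, at 7.11 CPM in PF and 14.7 CPM in HS (2.06, 1.57 to 2.72). There the thinned share was 1.61% of 1492 PF and 2.45% of 1183 HS cells (4.60% and 8.24% unthinned). Whether this share comes from free RNA or from the cells themselves was not tested.

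Among the other shared higher genes were a second glucocorticoid target and members of the HSP90 system. Tsc22d3, an anti-inflammatory regulator (chrX:140539528-140600659), had ratios of 1.70 in ependymal-like (106 to 180 CPM), 1.64 in endothelial-like and 1.62 in astrocyte-like cells, against 1.26 in microglia-like and 1.07 in pericyte-like cells. Hsp90ab1, the constitutive cytosolic HSP90, met the shared rule under all 13 other settings, as did Cirbp, and in its 7 measured classes the ratio ran from 1.36 in endothelial-like to 1.69 in fibroblast-like cells. It stood at 1392 CPM in PF and 2126 CPM in HS oligodendrocyte-like cells, a ratio of 1.53 (1.49 to 1.57). Hsp90aa1, the inducible HSP90, ran from 1.19 in endothelial-like to 1.4 in fibroblast-like cells. Ahsa2, related to the activator of the HSP90 ATPase, stood at 40.5 CPM in PF and 66.7 CPM in HS ependymal-like cells (1.65, 1.44 to 1.89) and at 38.0 and 63.9 CPM in oligodendrocyte-like cells (1.68).

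Genes of none of the 10 stress lists were also among the shared ones. Those lists hold glucocorticoid, heat shock, endoplasmic reticulum stress, cold-inducible, interferon, antigen presentation, clock, immediate early, oxidative stress and inflammatory genes. Cacybp, which encodes a binding partner of the S100 protein calcyclin and of a ubiquitin ligase (chr1:160202367-160212875), stood higher in each of its 7 measured classes, from 86.9 to 108 CPM in pericyte-like cells (1.24, 0.966 to 1.60) up to 97.6 to 137 CPM in oligodendrocyte-like cells (1.41, 1.27 to 1.56). Banp, a nuclear DNA-binding protein (chr8:121949750-122029258), stood at 29.4 CPM in PF and 41.6 CPM in HS endothelial-like cells (1.41, 1.30 to 1.54). Its ratio was 1.33 to 1.36 in astrocyte-, ependymal- and oligodendrocyte-like cells, 1.23 in microglia-like and 1.09 (0.744 to 1.61) in pericyte-like cells, and 0.911 (0.515 to 1.60) in the endothelial-like cells gated as arterial. Both genes differ by far less than Zbtb16, and each was still shared under 9 of 13 other settings.

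The shared lower genes had several roles. Cirbp (chr10:80165985-80172786) ranged from 192 to 96.8 CPM in fibroblast-like cells (0.504, 0.413 to 0.613) to 137 and 114 CPM in vascular smooth muscle-like cells (0.838, 0.699 to 1.0), and every measured class was lower in HS. Nr1d1, a repressor of the circadian clock whose RNA cycles over the day, stood at 82.7 CPM in PF and 56.1 CPM in HS ependymal-like cells (0.679, 0.603 to 0.763) and had a ratio of 0.660 in endothelial-like cells. The time of day of each collection was not given, so time and heat cannot be told apart for clock genes. Tap2, which loads peptides for antigen presentation, stood at 199 and 136 CPM in endothelial-like cells (0.684), and at 0.725 to 0.877 in its other measured classes. Of 13 other settings, Tap2 was still shared under 7, Nr1d1 under 10 and, of the genes that follow, H1f0 under 8 and Ifi27 under 9.

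Further shared lower genes were outside the stress lists. H1f0, a linker histone typical of cells that no longer divide (chr15:79028450-79030504), stood at 97.5 CPM in PF and 70.4 CPM in HS endothelial-like cells (0.721, 0.681 to 0.764) and ran down to 0.660 in fibroblast-like cells. Ifi27, an interferon-induced membrane protein gene (chr12:103434211-103440239), stood at 246 and 173 CPM in astrocyte-like cells (0.706, 0.646 to 0.771) and 283 and 208 CPM in oligodendrocyte-like cells (0.736), whereas ependymal-like cells had 309 and 321 CPM (1.04). Endothelial-like cells did not pass the limit for Ifi27 either (256 to 238 CPM, 0.931), and in microglia-like cells it was not measured.

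**Figure D1:**
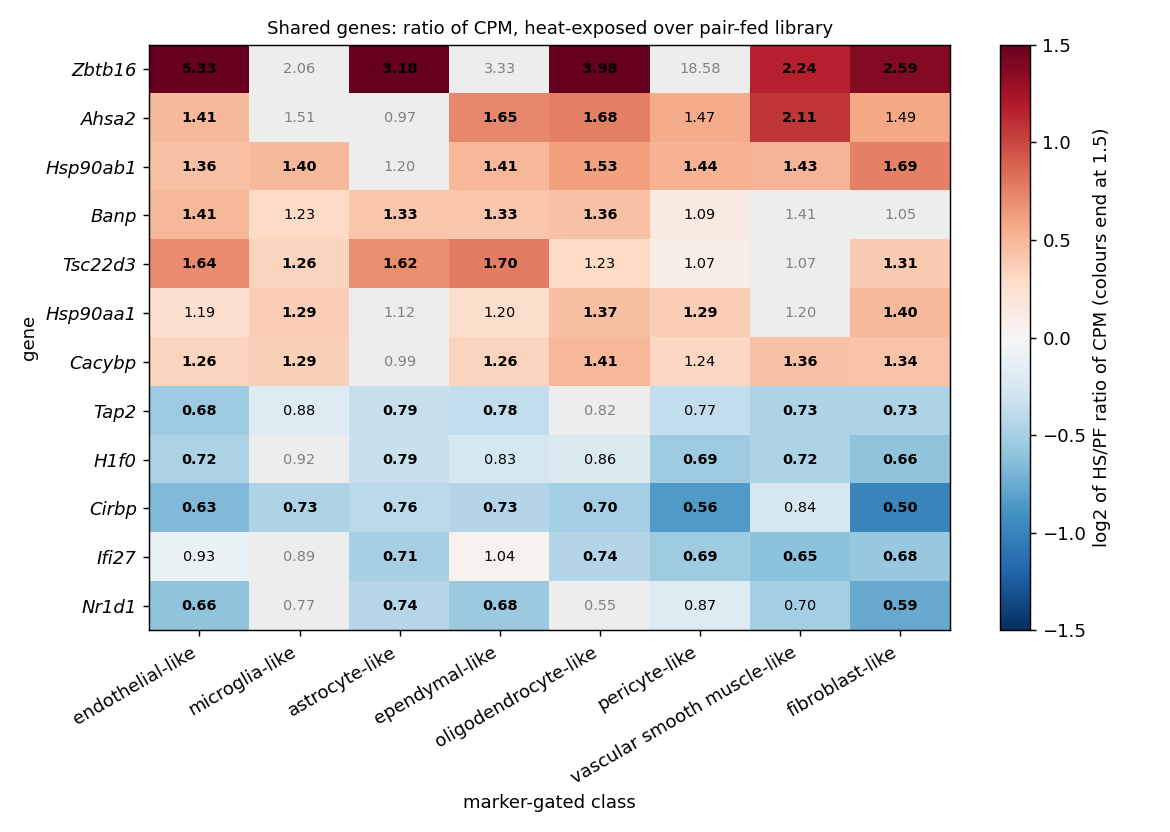
HS/PF ratio of CPM for 12 of the 13 shared genes (rows) in the 8 classes (columns), printed in each cell and coloured on a log2 scale. Bold ratios were at least 25% above or 20% below 1 with an interval that left out 1, and grey cells were not measured. Zbtb16 stands out at up to 5.33 among the measured classes, and Cirbp is below 1 in all 8.

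At a fold of 1.5, 324 of the 40806 pairs (0.794%) stood higher in HS and 345 (0.845%) lower. In endothelial-like cells 26 of 5123 genes (0.508%) were higher and 19 (0.371%) lower, and in astrocyte-like cells 37 of 5577 (0.663%) and 35 (0.628%). Oligodendrocyte-like cells had 22 higher (0.442%) and 8 lower (0.161%) of 4977 genes, microglia-like cells 5 (0.112%) and 2 (0.0447%) of 4478, and ependymal-like cells 3 (0.0533%) and 6 (0.107%) of 5629. The small classes had more: 74 (1.41%) and 91 (1.73%) of 5265 in pericyte-like cells, 74 (1.67%) and 37 (0.834%) of 4439 in vascular smooth muscle-like cells, and 83 (1.56%) and 147 (2.76%) of 5318 in fibroblast-like cells. The counts moved with depth, as the small classes have fewer UMIs. With every class sum thinned to 1238876 UMIs, the total of the shallowest class, fibroblast-like cells had 2.32% higher and 3.11% lower and pericyte-like cells 1.56% and 1.77%, while endothelial-like cells went up to 1.83% and 1.92%. At that equal depth astrocyte-like cells had 2.32% and 3.14%, against 1.52% and 1.31% in ependymal-like cells. Among genes with at least 200 UMIs over both libraries, 7 and 13 of 2480 passed in pericyte-like cells, 18 and 8 of 2969 in vascular smooth muscle-like cells and 35 and 40 of 2879 in fibroblast-like cells.

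**Figure D2:**
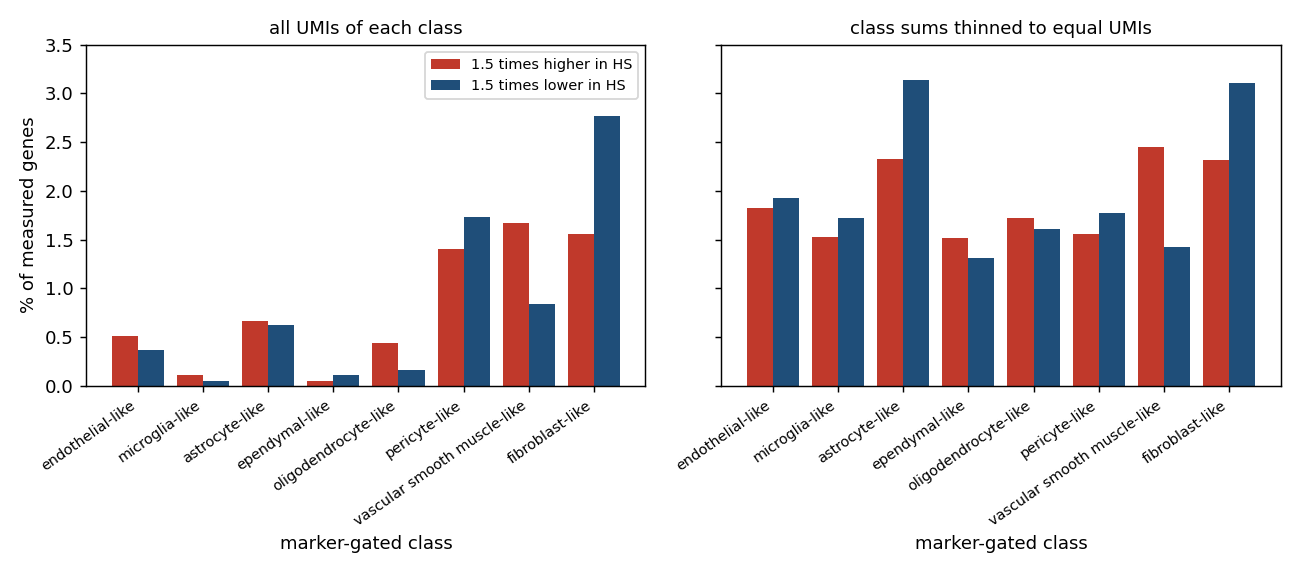
Share of measured genes (%) at least 1.5 times higher (red) or lower (blue) in HS, by class, with all UMIs on the left and with class sums thinned to equal UMIs on the right. The 3 small classes lead on the left with up to 2.76%, and on the right the classes lie between 1.31% and 3.14%.

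The 10 highest and 10 lowest ratios of each class gave 160 places, held by 140 genes. Of these, 126 appeared in 1 class, 14 in more, and none at both ends. Zbtb16 and Cirbp took 5 classes each, and the other 12 repeated genes took 2. Stress-list genes filled 20 of the 80 highest places and 19 of the 80 lowest, while they made up 661 (2.30%) of the 28720 ranked pairs of a gene and a class. The other 60 and 61 places were held by genes of no stress list. List members were chosen with earlier results of these data known, so the comparison with 2.30% is a description and not independent of these data. In astrocyte-like cells only 1 of the 10 highest and 1 of the 10 lowest came from a stress list, and in microglia-like cells 4 and 6 did.

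In endothelial-like cells the high end beyond Zbtb16 held genes of insulin-regulated transport and cytokine reception. Tbc1d4, which governs the movement of glucose transporters to the membrane (chr14:101442360-101609191), stood at 164 CPM in PF and 317 CPM in HS, a ratio of 1.93 (1.86 to 2.0). Tmem252, a small membrane protein gene, stood at 322 and 596 CPM (1.85, 1.80 to 1.90), and the thinned share of cells with a UMI was 32.6% in PF and 47.3% in HS, against 2.41% and 2.03% in microglia-like cells (51.6%, 65.4%, 7.72% and 8.95% unthinned). At the low end, Vcam1, an adhesion molecule for leukocytes (chr3:116109949-116129688), stood at 572 CPM in PF and 342 CPM in HS (0.597, 0.582 to 0.612), with a thinned share of 24.0% and 16.7% of cells (33.4% and 25.9% unthinned). Sox18, a vascular transcription factor, stood at 293 and 186 CPM (0.633), and Tnfsf10, the death ligand TRAIL, at 164 and 106 CPM (0.643). In these cells summed pituitary markers stood at 50.7 CPM in PF and 97.3 CPM in HS, neutrophil markers at 3.63 and 17.2 CPM and oligodendrocyte markers at 94.1 and 69.7 CPM, and their part in these ratios was not tested.

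Endothelial-like cells gated to vessel segments differed in the size of these ratios. Capillary-gated cells (1941 in PF, 1824 in HS) made up 49.4% and 49.3% of the class, arterial-gated cells (123 and 129) 3.13% and 3.49%, and venous-gated cells (99 and 72) 2.52% and 1.95%. The other endothelial-like cells were in none of these segments. Zbtb16 stood higher in all 3 segments, at 6.93 (6.10 to 7.91) in capillary-, 4.30 (2.94 to 6.42) in venous- and 3.49 (2.52 to 4.92) in arterial-gated cells. Tbc1d4 ratios were 1.85 in capillary-, 1.87 in arterial- and 3.42 (2.59 to 4.55) in venous-gated cells. For Vcam1 the ratio was 0.543 in capillary-gated cells (41.9 to 22.7 CPM), 0.601 in venous-gated cells (1787 to 1075 CPM) and 0.826 in arterial-gated cells (713 to 590 CPM). Fas, the receptor of a death ligand, stood at 1.64 (1.52 to 1.77) in capillary-gated cells and at 1.20 (0.924 to 1.56) in arterial-gated ones.

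Microglia-like cells were led by Fkbp5, a co-chaperone of the glucocorticoid receptor, at 56.1 CPM in PF and 145 CPM in HS (2.59, 2.36 to 2.84). Ccnd3, a D-type cyclin that drives entry into the cell cycle (chr17:47505051-47599691), followed at 253 and 499 CPM (1.97, 1.88 to 2.06). A Ccnd3 UMI was found in 35.7% of PF and 55.8% of HS microglia-like cells after thinning (62.8% and 82.1% unthinned), against 6.94% and 6.05% in oligodendrocyte-like cells (18.8% in both unthinned). Its ratio was 1.58 (1.41 to 1.76) in astrocyte-like cells, 0.997 in pericyte-like and 1.28 in endothelial-like cells. Summed markers of proliferating cells stood at 73.7 CPM in PF and 119 CPM in HS microglia-like cells, and their part in the Ccnd3 ratio was not tested. At the low end stood Il1b, an inflammatory cytokine, at 87.8 and 57.1 CPM (0.650, 0.586 to 0.721), Lgals3bp, an interferon-induced secreted protein, at 184 and 121 CPM (0.657), and H2-T22, whose upstream sequence is printed above, at 57.5 and 43.1 CPM (0.749). Lyz2, a lysozyme of myeloid cells, stood at 148 and 109 CPM, with 1 PF cell holding 7.85% of its UMIs there. Under a stricter gate, with at least 4 markers of the class and no other class above 0.25 of its share, 492 PF and 491 HS microglia-like cells were left and the Lyz2 ratio was 1.0414.

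In astrocyte-like cells, Frmpd1, a scaffold protein gene (chr4:45184875-45285936), stood at 174 CPM in PF and 372 CPM in HS (2.13, 1.96 to 2.33), and it was found in 27.5% of PF and 44.8% of HS cells after thinning (40.7% and 61.8% unthinned). The same thinned share was 0.121% and 0.281% in endothelial-like cells. Rmst, a long noncoding RNA of neural cells, stood at 129 and 265 CPM (2.06, 1.86 to 2.28), and Hif3a, a hypoxia-inducible factor subunit, at 85.8 and 157 CPM (1.83, 1.61 to 2.07). The lowest ratio belonged to Dbp, an output gene of the circadian clock, at 112 and 41.4 CPM (0.369, 0.315 to 0.433), with 102 and 47.6 CPM (0.467) in ependymal-like cells. Homeobox genes were low as well: Nkx6-2 stood at 425 and 240 CPM (0.565, 0.526 to 0.607), and Nkx2-2 at 91.9 and 56.1 CPM (0.611). Both are also known in the oligodendrocyte lineage, and Nkx6-2 was found in 45.2% and 29.8% of astrocyte-like cells after thinning (57.0% and 45.4% unthinned). In these same cells summed oligodendrocyte markers stood at 144 CPM in PF and 87.8 CPM in HS, newly formed oligodendrocyte markers, among them Nkx2-2, at 98.2 and 58.5 CPM, choroid plexus markers, among them the low-end gene Clic6, at 63.1 and 39.0 CPM, and tanycyte markers at 49.7 and 67.4 CPM. Erythroid genes went from 1289 to 58.0 CPM, and the part of these in the astrocyte-like ratios was not tested.

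Oligodendrocyte-like cells carried a strong difference in Sgk1, a kinase induced by glucocorticoids and serum (chr10:21882184-21999903), at 228 CPM in PF and 784 CPM in HS (3.44, 3.24 to 3.65). Polr3e, a subunit of RNA polymerase III, stood at 106 and 198 CPM (1.87, 1.70 to 2.06), and Bcat1, which starts the breakdown of branched-chain amino acids, at 30 and 56.0 CPM (1.87). Adipor2, a receptor of the fat hormone adiponectin, stood at 305 and 486 CPM (1.59, 1.5 to 1.69). Klf9, a transcription factor that responds to thyroid hormone and glucocorticoids, stood at 105 and 159 CPM (1.51, 1.37 to 1.67). The low end held Hopx at 128 and 79.1 CPM (0.618), Rbm3, a second cold-inducible RNA-binding protein gene, at 130 and 92.4 CPM (0.709, 0.636 to 0.791), and the protease gene Klk6 at 329 and 242 CPM (0.735). For Hopx 1 PF cell held 8.88% of the UMIs. Pituitary markers stood at 18.4 and 73.6 CPM and erythroid genes at 110 and 31.7 CPM in the oligodendrocyte-like class, and their part was not tested.

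In ependymal-like cells the high end ran only from 1.70 for Tsc22d3 to 1.36 for Rhou, with Ahsa2 and Hsp90ab1 after Tsc22d3. Outside the stress lists, Timp4, an inhibitor of matrix proteases, stood at 71.5 CPM in PF and 99.1 CPM in HS (1.39). The epithelial keratin genes Krt8 (76.2 to 51.6 CPM, 0.677) and Krt15 (137 to 95.9 CPM, 0.699) stood low, as did the growth factor gene Nrg1 (162 to 116 CPM, 0.711). Tanycyte markers stood at 157 and 188 CPM and oligodendrocyte markers at 88.7 and 58.1 CPM in these cells, and their part was not tested.

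In the small classes the ends rest on fewer UMIs. Fibroblast-like cells were led, after Zbtb16, by inducible chaperones: Hspa1b stood at 508 CPM in PF and 1314 CPM in HS (2.59, 2.38 to 2.81) and Hsph1 at 160 and 396 CPM (2.48, 2.14 to 2.88). Hspa1b and Hspa1a are near-identical copies, so the division of counts between them is uncertain. Interferon-induced genes among their 10 lowest were Ifi27l2a at 446 and 227 CPM (0.509), Irf7 at 120 and 64.5 CPM (0.536) and Igtp at 140 and 76.7 CPM (0.549, 0.437 to 0.687), beside the stem cell antigen gene Ly6a at 1546 and 895 UMIs (0.545, 0.501 to 0.592). Under the stricter gate, which left 48 PF and 45 HS fibroblast-like cells, the Igtp and Ly6a ratios were 1.17 and 1.11. Of 21 measured genes of the interferon response list in fibroblast-like cells, 11 stood at least 20% lower and 1 at least 25% higher. The higher one was the antiviral gene Rsad2, at 72.4 and 124 CPM (1.71, 1.35 to 2.17). Over all 5318 measured genes of the fibroblast-like class, 350 stood lower and 273 higher by these limits. Markers of monocytes or dendritic cells stood at 86.7 and 50.5 CPM in the fibroblast-like class, and their part was not tested. In vascular smooth muscle-like cells Eln, the elastin gene, stood at 137 and 77.0 CPM (0.564, 0.458 to 0.692). In pericyte-like cells Galnt17, a glycosyltransferase gene, stood at 284 and 502 CPM (1.77, 1.56 to 2.01).

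**Figure D3:**
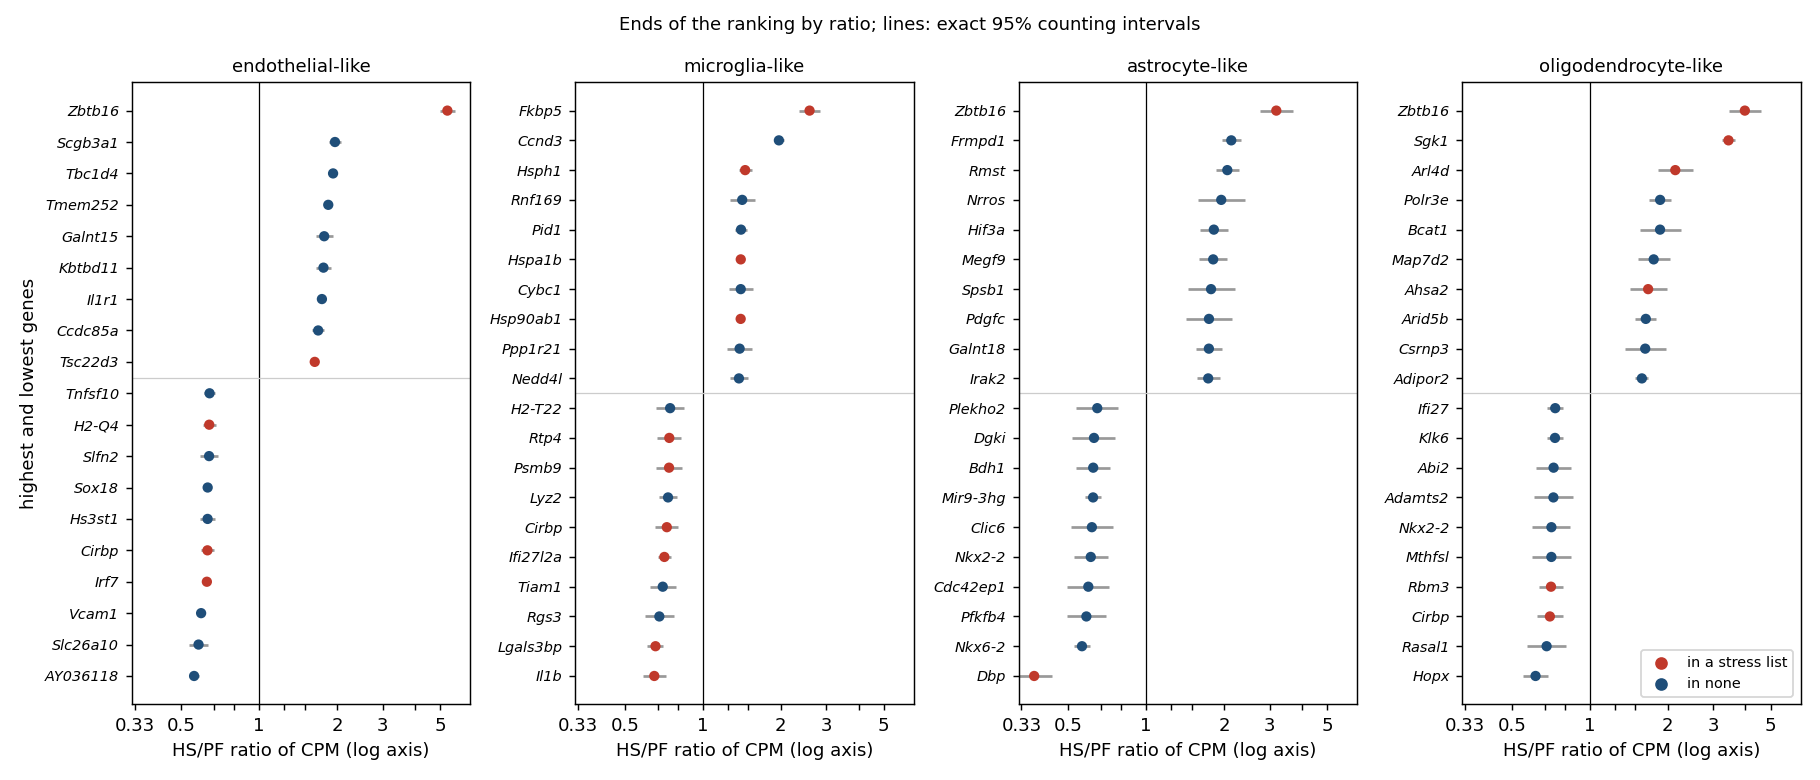
HS/PF ratios of CPM (log axis) of genes at the high and low ends of the ranking in 4 large classes (not every ranked gene is drawn), with lines for exact 95% counting intervals and red points for stress-list genes. Zbtb16 leads 3 of the 4 classes with 5.33, 3.18 and 3.98, and Fkbp5 leads microglia-like cells with 2.59, while most other points are in no stress list.

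Genes that differed in 1 class and were flat in the others were counted among 4947 genes measured in at least 4 classes. A class-specific gene had a ratio of at least 1.4 with an interval leaving out 1 in exactly 1 class and lay at most 15% above or 13% below the PF level wherever else it was measured. There were 51 higher (1.031%) and 62 lower (1.253%). Fibroblast-like cells held 17 and 28 of them, vascular smooth muscle-like cells 12 and 10, and pericyte-like cells 12 each way. In the deeper classes there were 4 and 1 in endothelial-like, 2 and 4 in astrocyte-like, 1 and 3 in ependymal-like and 3 and 4 in oligodendrocyte-like cells, and none either way in microglia-like cells. As the class was picked by its ratio, the values that follow are a description.

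Sgk1 was the clearest of these. Against its ratio of 3.44 in oligodendrocyte-like cells, it stood at 599 CPM in PF and 604 CPM in HS endothelial-like cells (1.01, 0.988 to 1.03), 412 and 435 CPM in microglia-like cells (1.06) and 147 and 153 CPM in fibroblast-like cells (1.04). The cells carrying a UMI went from 33.6% to 66.5% of oligodendrocyte-like cells after thinning (63.6% and 86.8% unthinned), beside 3.69% and 4.95% of astrocyte-like cells (7.66% and 10.2% unthinned). Arl4d, a small GTPase gene also in the glucocorticoid list, stood at 37.2 and 79.7 CPM in oligodendrocyte-like cells (2.14, 1.83 to 2.51) and between 0.971 and 1.02 in 3 other classes. Adipor2 ratios ran from 0.9503 to 1.145 in 3 others.

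The endothelial-specific genes included receptors of inflammatory and death signals. Il1r1, the signalling receptor of interleukin-1 (chr1:40225080-40317257), stood at 141 CPM in PF and 247 CPM in HS (1.75, 1.68 to 1.82), and at 1.04 to 1.13 in pericyte-, vascular smooth muscle- and fibroblast-like cells. After thinning it was found in 11.7% and 15.3% of endothelial-like cells (21% and 25% unthinned), against 0.804% and 0.845% of microglia-like cells (3.24% and 3.69% unthinned). Among the venous-, capillary- and arterial-gated cells its level was highest in the venous-gated ones, at 707 and 1812 CPM (2.56, 2.24 to 2.93). Capillary-gated cells had 15.6 and 27.1 CPM (1.74) and arterial-gated ones 10 and 7 UMIs. Venous-gated cells held 348 of the 4193 PF and 617 of the 7156 HS UMIs of the gene in the endothelial-like class. Most of its UMIs were in endothelial-like cells outside these segments. Il1r1 is itself 1 of the venous gate markers, so the venous level is partly set by the gate in both libraries. Fas stood at 110 and 174 CPM (1.58, 1.52 to 1.66), Synm, an intermediate filament gene, at 80.3 and 122 CPM (1.53), and Prkcb, a protein kinase C gene, at 45.6 and 65.0 CPM (1.43). Tgfb2, a growth factor of the TGF-beta family (chr1:186622792-186705989), was the 1 endothelial-specific lower gene, at 261 and 172 CPM (0.659, 0.636 to 0.683).

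In astrocyte-like cells Irak2, a kinase downstream of interleukin-1 and Toll-like receptors (chr6:113638467-113695026), stood at 132 CPM in PF and 230 CPM in HS (1.74, 1.57 to 1.92), against 0.907 to 1.11 in 4 other classes. Its thinned share was 20.8% and 32.9% of astrocyte-like cells (32.4% and 48.3% unthinned), beside 28.6% and 29.1% of microglia-like cells (59.4% and 60.7% unthinned), where the gene is expressed as well. Pde7b, a cyclic AMP phosphodiesterase gene, stood at 241 and 355 CPM (1.47). Cat, the catalase gene, stood at 71.9 and 49.9 CPM (0.694, 0.588 to 0.820) and S100a13 at 106 and 74.9 CPM (0.708). Ependymal-specific lower genes were Acox3, a peroxisomal fatty acid oxidase (81.3 to 53.5 CPM, 0.658), Dusp16, a MAP kinase phosphatase (78.1 to 51.9 CPM, 0.665), and Trp53inp2 (33.3 to 21.5 CPM, 0.645). Tulp3, a gene of ciliary transport, was specific to oligodendrocyte-like cells at 49.0 and 30.1 CPM (0.613, 0.508 to 0.739), but its ratio was 1.0255 under the stricter gate, which left 360 PF and 334 HS cells of the class. Of the genes in small classes, Cacna1d, a calcium channel subunit gene, stood at 41.9 and 72.6 CPM in vascular smooth muscle-like cells (1.73, 1.32 to 2.28), and Fosb, an immediate early gene, at 1855 and 2982 CPM in fibroblast-like cells (1.61, 1.53 to 1.68).

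**Figure D4:**
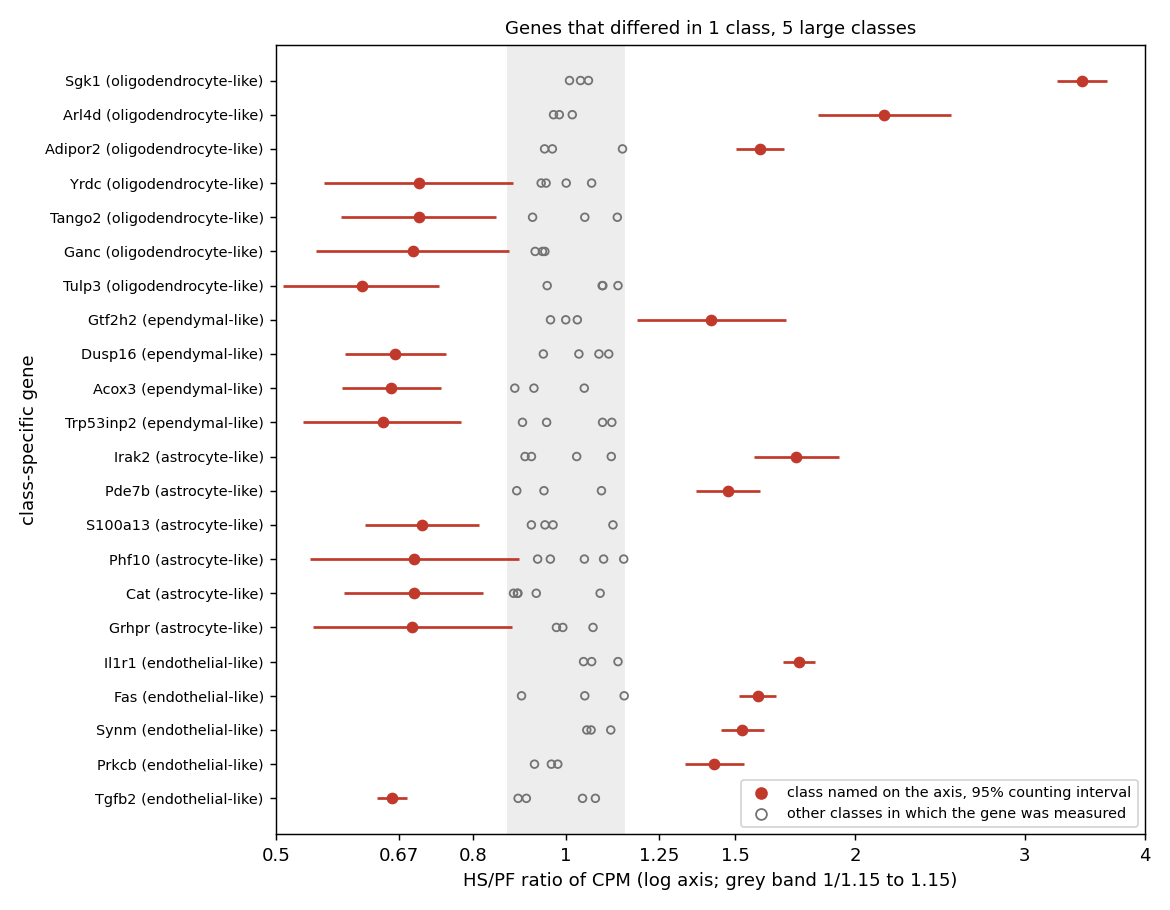
HS/PF ratio of CPM (log axis) of the 22 class-specific genes of the large classes, with the named class in red with its 95% counting interval and the other measured classes as open circles. The open circles lie within the grey band by the rule, and Sgk1 in oligodendrocyte-like cells lies farthest out at 3.44.

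Some genes stood higher in 1 class and lower in another by the limits of 25% and 20%, 114 in all and 17 within the large classes. Over all pairs of a gene and a class, 3.72% stood higher and 3.66% lower by these limits. How many opposed genes counting error alone would give was not tested, so these counts are a description. Tbc1d4 stood higher in endothelial-like cells (1.93) and lower in ependymal-like cells, at 35.6 and 27.6 CPM (0.776, 0.652 to 0.923). Rin2, a gene of endocytic traffic, stood at 80.0 and 136 CPM in astrocyte-like cells (1.69, 1.49 to 1.94) and at 37.7 and 26.6 CPM in oligodendrocyte-like cells (0.707, 0.575 to 0.866). Rin2 was chosen after its values were seen, and no difference between classes was tested.

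The 35 gene lists outside the stress lists differed little as groups. They held 2591 measured pairs of a gene and a class, of which 79 (3.05%) stood at least 25% higher in HS and 106 (4.09%) at least 20% lower, beside 3.72% and 3.66% of all pairs. The 10 stress lists had 107 higher (13.9%) and 108 lower (14%) of 771 pairs. As lists and members were chosen with earlier results of these data known, these shares are a description only. Medians of the 35 lists ran from -0.15 to 0.08 on the log2 scale, where the median over all measured genes was 0.0005. No pair passed either limit in the lists of myelin (23 pairs), motile cilia (26), astrocyte transport (32) and the cytoskeleton (100). Blood-brain barrier transporters had 1 higher and 1 lower of 40 pairs, and endothelial junction genes 1 and 1 of 46.

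Among the metabolic lists, cholesterol synthesis and efflux had 0 higher and 13 lower of 81 pairs, with a median log2 ratio of -0.15. Its lower members included Insig1 in pericyte-like cells (55.6 to 34.7 CPM, 0.625) and Idi1, an enzyme of sterol synthesis, in vascular smooth muscle-like cells (58.1 to 38.0 CPM, 0.653). The Insig1 ratio was 1.0261 under the stricter gate, which left 95 PF and 84 HS pericyte-like cells. The glycolysis list had 2 higher and 8 lower of 104 pairs. Pfkfb4, a regulator of glycolytic flux, stood at 72.4 and 42.6 CPM in astrocyte-like cells (0.588, 0.494 to 0.698), and Pfkp, a phosphofructokinase, at 97.9 and 140 CPM in the same cells (1.43, 1.26 to 1.61). Fatty acid and ketone genes had 4 higher and 6 lower of 115, with Bdh1, which interconverts ketone bodies, at 89.1 and 55.6 CPM in astrocyte-like cells (0.625, 0.536 to 0.728). Nuclear genes of oxidative phosphorylation had 2 and 4 of 218.

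The hormone lists held named members in astrocyte-like cells. Thyroid hormone handling had 5 higher and 0 lower of 23 pairs, among them Klf9, also in the glucocorticoid list, in oligodendrocyte-like cells and Hr, a corepressor of thyroid hormone receptors, at 51.5 and 74.2 CPM in astrocyte-like cells (1.44, 1.22 to 1.71). Insulin and IGF signalling had 6 higher and 4 lower of 95. Foxo1, a transcription factor that insulin keeps out of the nucleus, stood at 116 and 195 CPM in astrocyte-like cells (1.68, 1.51 to 1.87) and its relative Foxo3 at 71.2 and 110 CPM (1.55, 1.34 to 1.79), against 0.95 (0.912 to 0.991) and 1.24 (1.17 to 1.31) in endothelial-like cells. Leptin and gp130 signalling had 6 and 5 of 72, with Lifr, the receptor of leukemia inhibitory factor, at 141 and 215 CPM in astrocyte-like cells (1.52, 1.38 to 1.69).

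Of the signalling and immune lists, Notch had 2 higher and 10 lower of 55 pairs, 5 of the lower ones in astrocyte-like cells. Whether these exceed the share of that class was not tested. By the same limits, 285 stood higher and 377 lower of all 5577 genes measured in astrocyte-like cells. There Hes5, a Notch target, stood at 336 and 233 CPM (0.694, 0.643 to 0.749) and Jag1, a Notch ligand, at 48.7 and 32.5 CPM (0.668, 0.544 to 0.819). Complement and phagocytosis had 4 higher and 1 lower of 38, with Mertk, a receptor for engulfment, at 311 and 496 CPM in astrocyte-like cells (1.60, 1.49 to 1.71) and its ligand Gas6 at 75.7 and 119 CPM in fibroblast-like cells (1.57, 1.24 to 1.99). Activated microglia genes had 1 and 4 of 39. Csf1, the growth factor of microglia, stood at 125 and 81.1 CPM in endothelial-like cells (0.648, 0.615 to 0.683), although the ratio was 1.02 (0.784 to 1.31) in the venous-gated ones. Hypoxia response genes had 8 and 5 of 82, and MAP kinase feedback genes 2 and 6 of 61, with 4 of the 6 in pericyte-like cells. Of all 5265 genes measured in pericyte-like cells, 216 stood higher and 223 lower by the same limits.

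**Figure D5:**
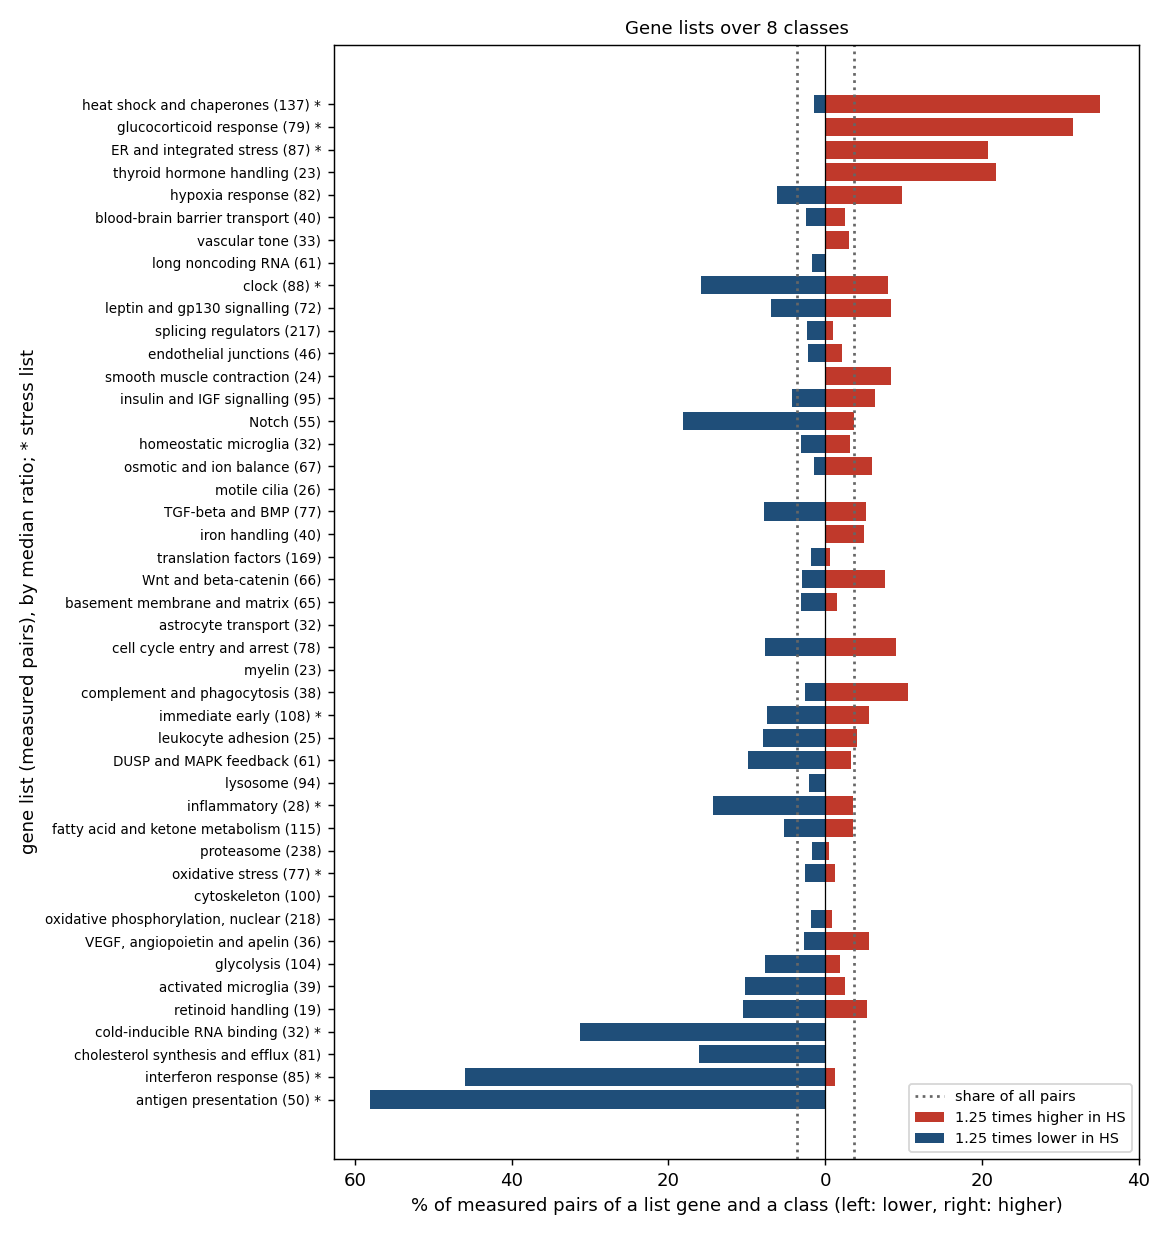
Share of measured pairs of a list gene and a class (%) at least 25% higher (right, red) or 20% lower (left, blue) in HS for 45 gene lists, in order of their median ratio, with asterisks for stress lists and dotted lines for the shares of all pairs (3.72% and 3.66%). Stress lists take the longest bars, and the cholesterol list has lower members only, 13 of 81.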

How the data were processed

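Single-cell RNA libraries of the hypothalamus, 1 of pair-fed and 1 of heat-exposed mice, were read as UMI counts per gene and barcode for 32285 genes. The authors deposited these counts as filtered, unnormalized matrices, and per the submitters' processing notes Cell Ranger 5.0.0, Seurat 3.1.2 and the mm10 build were used, while the matrix headers name Cell Ranger 7.0.1. Whether introns were counted is not stated, which bears on genes with long introns. Gene coordinates are from GENCODE M21 and promoters from RefSeq, GRCm38.p6.

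Barcodes with at least 500 UMIs and at most 20% mitochondrial UMIs were kept, 12645 of 12836 in PF and 12305 of 12510 in HS. A cell entered the class with the largest share of its 8 markers detected, given at least 3 of them and no other class above 0.50 of that share. This placed 9615 PF and 9394 HS cells. No doublet caller was run, and the 2729 PF and 2648 HS barcodes with markers of more than 1 class, of higher median depth (8788 and 9653 UMIs), were left out by the gate. Near a limit, with exactly 3 markers detected or a second class at 0.40 or more of the share, were 1946 placed PF and 1784 placed HS cells. Left out with a second class at no more than 0.60 of the share were 540 PF and 553 HS cells.

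Counts were summed per class and library and divided by the class total. Ratios have exact conditional binomial intervals at 95%, which cover counting error only. Genes with over 10% of their UMIs from 1 cell in either library, mitochondrial, ribosomal protein and haemoglobin genes and predicted genes named Gm or Rik were left out. Genes were named by rule: the 10 highest and 10 lowest ratios per class from 50 CPM and 30 UMIs, up to 15 shared genes each way, up to 5 class-specific genes each way per class, up to 10 opposed genes and up to 4 members per gene list. Some genes that the rule names are not reported here. Members and lists were chosen with earlier results of these data known. Ratios were checked on simulated data. Of 13 other settings tried, 3 were added after seeing the data: the 1-cell limit applied in the library with more, a minimum of 200 UMIs, and equal UMIs per class. Python 3.11.15, NumPy 2.4.6, SciPy 1.17.1, pandas 2.3.3 and matplotlib 3.10.9 were used.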

Additional observations from a re-analysis of the deposited data

Results flagged for a closer look

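A set of 10 genes stood higher in HS in 1 class and lower in another by the widest margins. In none was the difference between the classes tested, and each pair includes at least 1 of the 3 small classes, where counting error is largest. Vcam1, the adhesion molecule, had a ratio of 1.5 in fibroblast-like cells (140 to 210 CPM) and 0.597 in endothelial-like cells (572 to 342 CPM). Cd274, which encodes the immune checkpoint ligand PD-L1, had 1.84 in fibroblast-like cells (79.6 to 147 CPM) and 0.666 in endothelial-like cells (101 to 67.6 CPM). Both genes of leukocyte contact thus stood lower in endothelial-like and higher in fibroblast-like cells, although under the stricter gate the fibroblast-like Vcam1 ratio was 0.8802. Lifr, the cytokine receptor, had 1.52 in astrocyte-like cells (141 to 215 CPM) and 0.492 in fibroblast-like cells (42.0 to 20.7 CPM).

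The remaining genes were mostly at low levels. Crkl, a signalling adaptor gene, had 1.82 in vascular smooth muscle-like and 0.568 in fibroblast-like cells. Slc38a9, a lysosomal amino acid transporter gene, had 1.97 in pericyte-like and 0.656 in fibroblast-like cells. Proca1 had 1.89 in pericyte-like and 0.669 in astrocyte-like cells. Nop14, a gene of ribosome assembly, had 1.79 in pericyte-like and 0.680 in fibroblast-like cells, and 1.0562 in the latter under the stricter gate. Terf2, which encodes a telomere-binding protein, had 1.57 in vascular smooth muscle-like and 0.620 in pericyte-like cells. Nkx6-1, a homeobox gene, had 1.33 in vascular smooth muscle-like and 0.530 in pericyte-like cells. Spcs3, a signal peptidase subunit gene, had 1.68 in pericyte-like and 0.676 in vascular smooth muscle-like cells.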

How the results depend on the processing

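No paired analysis was possible because each group has 1 library. Of 3912 ratios of named genes under other settings, 3509 moved by less than counting error, 369 moved further and 34 reversed. Of 585 list medians 580 kept within that limit, 4 moved and 1 reversed. The 324 higher pairs became 91 from 100 CPM, 153 from 200 UMIs and 788 at equal UMIs, and the 345 lower pairs became 63, 131 and 837, and 539 with cells weighted equally. Shared higher genes (7) were 3 under the stricter gate and 4 from 100 CPM, and shared lower genes (6) were 1, 2, 15 with no minimum relative to the highest class and 1 at equal UMIs. Class-specific higher genes (51) were 9 from 100 CPM and 29 from 200 UMIs, and lower ones (62) were 7, 27 and 38 at equal UMIs. These counts include genes that were not class-specific before. Of the original class-specific genes, both ways together, 3 were kept under the stricter gate, 11 at equal UMIs and 12 from 100 CPM. With cells weighted equally 34 were kept, from 200 UMIs 40, and under the remaining settings from 70 to 113. Fewer genes are measured at the higher minimums. For the other counts the cause was not tested.

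The stricter gate left 48 PF and 45 HS fibroblast-like, 37 and 40 vascular smooth muscle-like, 95 and 84 pericyte-like, 492 and 491 microglia-like and 360 and 334 oligodendrocyte-like cells. Ratios that reversed there in fibroblast-like cells were Baz1a 0.7545, Errfi1 0.9861, H2-Q6 1.1003, H2-T23 1.2803, Igtp 1.1736, Ltbr 0.9536, Ly6a 1.1078, Mrps34 1.1003, Mt2 0.9950, Nfkb1 0.6706, Nop14 1.0562, Psmb1 1.2103, Reck 1.5573, Stx11 0.8802, Taf4b 0.5417, Taz 1.0562, Tsc22d3 0.9196 and Vcam1 0.8802. Elsewhere they were Lyz2 1.0414 in microglia-like, Nkx2-2 1.0458 and Tulp3 1.0255 in oligodendrocyte-like, Insig1 1.0261 and Ston1 0.9481 in pericyte-like, and Ccdc12 1.5178, Cdk6 0.9444, Ednra 0.8723 and H1f0 1.0119 in vascular smooth muscle-like cells, and the retinoid list median (0.0001). Arterial-gated cells reversed Banp (0.9108), Ccdc85a (0.6350), Cxcl1 (1.1501), Igfbp3 (0.9219) and Il1r1 (0.7112), and venous-gated cells Csf1 (1.0152) and Igfbp3 (0.0761). The intervals of these segment ratios included 1, except for Igfbp3 in venous-gated cells, which rests on 19 PF and 1 HS UMIs. Counts were also low for Ccdc85a (8 and 5 UMIs) and Il1r1 (10 and 7) in arterial-gated cells. The cause of these reversals was not tested. Depth limits the 3 small classes most.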
